A study of Mus musculus with 22 samples.

Results

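Primary mouse embryonic fibroblasts (MEFs) carrying a hairpin against lamins A and C were examined for where their lamina-associated domains (LADs) differed from those of untreated cells. The data were DamID-seq LAD lists: 3 wild-type (WT) lists, from embryos 1.5, 1.8 and x17, and 2 lists from the hairpin cells (shAC), from embryos 1.5 and x17. They were chosen by their labelled condition and come from 10 of the 22 sequenced samples of the series, which form 5 of its 11 pairs (Dam-lamin B1 with Dam-only). All cells were C57bl/6 MEFs from e13.5 embryos. WT cells are labelled as having no treatment, and the labels name no control hairpin or puromycin selection for them. The shAC cells had been infected overnight with shLaminA/C virus and selected with puromycin, received the Dam virus 4 days after the hairpin virus, and were collected 48 h later. The hairpin, the virus and the selection therefore cannot be told apart in any difference below. The lists hold no gene values, so the level of lamin A/C in these cells and the identity of the cells as fibroblasts were not measured here.

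The nuclear lamina is a meshwork of A-type lamins (lamins A and C, both made from Lmna) and B-type lamins that lines the inner nuclear membrane. LADs are large, gene-poor and mostly silent stretches of chromosome that touch it, and they alternate along each chromosome with active stretches that do not. DamID records this contact in living cells, because lamin B1 joined to the bacterial enzyme Dam leaves adenine methylation on nearby DNA, while Dam alone serves as the measure of accessibility. The lamin detected here was thus lamin B1, not the lamins that the hairpin targets. DamID reads a population of cells, so a base called in a LAD touched the lamina in enough cells to pass the calling threshold.

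On chromosomes 1 to 19, with intervals under 25 kb apart joined and only those over 100 kb kept, LADs numbered 1849 in WT embryo 1.5, 2187 in WT embryo 1.8 and 2016 in WT embryo x17. They numbered 2011 in shAC embryo 1.5 and 1855 in shAC embryo x17. The WT list of embryo 1.8 was the longest, at 1507 Mb, and the shAC list of embryo x17 the shortest, at 1339 Mb. The others covered 1377 Mb (WT embryo 1.5), 1429 Mb (WT embryo x17) and 1431 Mb (shAC embryo 1.5). The shAC list of embryo x17 thus lay below the shortest WT list and that of embryo 1.5 within the WT range, and this spread in total length enters the measures below. Each file holds interval positions only, without scores or read counts, so depth is unknown and the number of lists sets the precision.

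Bases called in all 3 WT lists formed 2105 blocks of 1270 Mb in total, or 52.6% of the 2415 Mb spanned, with a median block of 312 kb. Bases called in no WT list formed 1889 gaps of 813 Mb. A run of block bases missing from a shAC list is called lost, and a run of gap bases present in it is called gained. Both words describe a difference in call and not a tested change. A lost run can be a whole block, an edge (it reaches 1 end of the block) or an interior run (it reaches neither end). A gained run can be isolated in its gap, an extension of a neighboring LAD, or a bridge that fills the gap.

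With intervals joined and filtered, bases lost in shAC cells lay mainly in whole short blocks and at block edges. The shAC list of embryo 1.5 lacked 26.3 Mb of the WT blocks, of which 13.3 Mb (50.6%) lay at edges, 8.40 Mb (31.9%) in whole blocks and 4.59 Mb (17.5%) in interiors. The list of embryo x17 lacked 70.3 Mb, with 32.7 Mb (46.6%) at edges, 28.7 Mb (40.9%) in whole blocks and 8.81 Mb (12.5%) in interiors. The order of the places was the same in both lists although the amounts differed. Both lists lacked the same 14.9 Mb, which is 56.8% of the bases lost in embryo 1.5 and 21.2% of those lost in embryo x17. Of these shared bases 6.80 Mb (45.5%) were edge, 6.09 Mb (40.8%) whole block and 2.04 Mb (13.7%) interior. This order depended on the joining and the length minimum, since with the lists as deposited the whole-block share was 24.1% and the interior share 27.7%. It also depended on short runs: with runs under 10 kb ignored, whole blocks led with 43.7%, against 41.6% at edges.

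Most blocks kept all of their bases in at least 1 shAC list. Counted by block, 1255 of 2105 (59.6%) were intact in the shAC list of embryo 1.5 and 947 (45.0%) in that of embryo x17. A single edge was trimmed in 619 and 660 blocks, both edges in 61 and 153 blocks, and the interior alone was broken in 60 and 78 blocks, for embryos 1.5 and x17 in turn. Edge runs were numerous and short, with a median of 5.22 kb over 789 runs in embryo 1.5 and of 8.87 kb over 1044 runs in embryo x17. Whole blocks were lost far less often but in longer pieces: 74 blocks with a median of 112 kb in embryo 1.5, and 202 blocks with a median of 128 kb in embryo x17. No base of 53 blocks lay in either shAC list, which is 2.52% of all blocks, and the longest of them was 196 kb.

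WT lists were next held against the same kind of reference, since a WT list cannot lose bases from blocks that require it. Blocks were built from each pair of WT lists, and the WT list left out and both shAC lists were measured against them. Whole-block loss was 2.60% of block bases in WT embryo 1.5, 0.246% in WT embryo 1.8 and 1.60% in WT embryo x17. It was 0.712% to 1.39% in shAC embryo 1.5 and 2.31% to 3.82% in shAC embryo x17 over the 3 references. The groups overlapped, with shAC embryo 1.5 below WT embryo 1.5. Mean whole-block loss was 2.14% ± 1.39 in shAC (SD, n = 2) and 1.48% ± 1.18 in WT (SD, n = 3), a difference reached or passed in size by 6 of the 10 arrangements of the list names (exact permutation test, two-sided, p = 0.6). With 3 lists against 2, the smallest p that this test can give is 0.1, so no measure here can pass a threshold of 0.05.

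Edge and interior loss overlapped between the groups in the same way. Edge loss was 2.60% ± 1.14 in shAC (SD, n = 2) and 2.13% ± 0.898 in WT (SD, n = 3; two-sided exact permutation test, p = 0.6). Interior loss was 0.748% ± 0.281 in shAC (SD, n = 2) and 0.614% ± 0.0780 in WT (SD, n = 3; exact permutation test, p = 0.8). Interior loss in shAC embryo x17, at 0.804% to 1.16%, lay above every WT value, whereas shAC embryo 1.5, at 0.484% to 0.632%, reached below all of them.

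**Figure D1:**
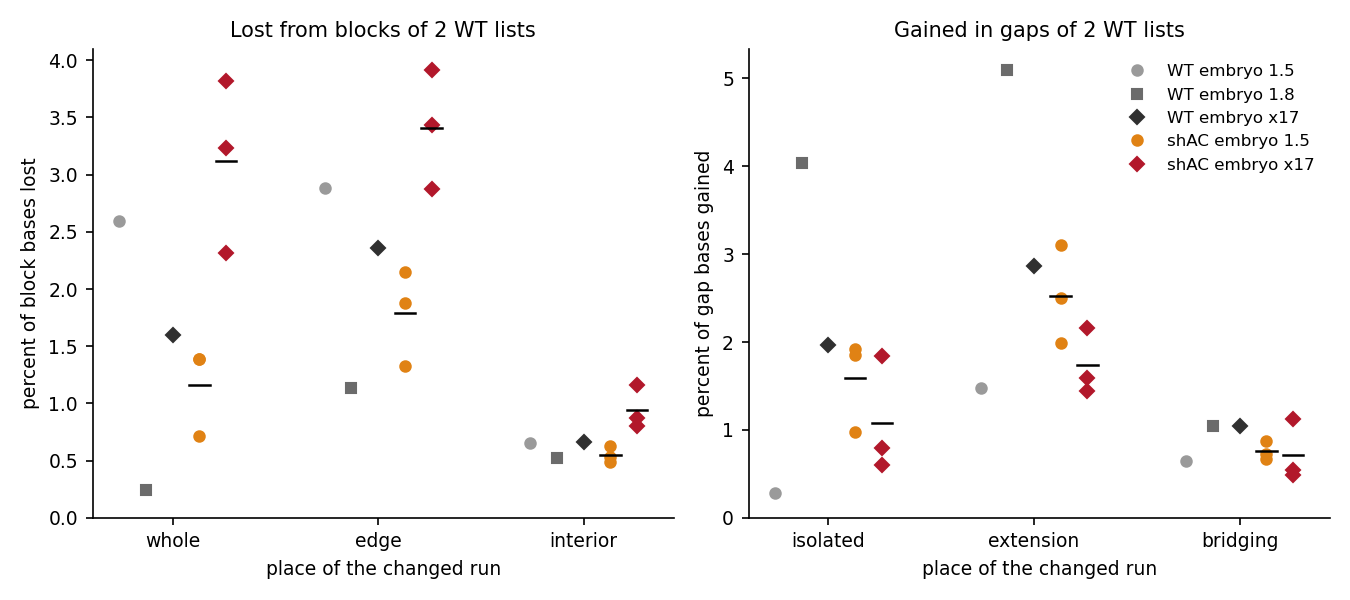
Percent of bases lost from blocks of a WT pair (left) and gained in the gaps of that pair (right), by place. Each WT list has 1 value, from the reference it is not part of, and each shAC list has 3 values, with their mean as a bar; WT embryo 1.8 is lowest for whole-block loss (0.246%) and highest for isolated gain (4.04%), so the WT lists alone span much of each axis.

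Extensions of LADs that WT cells also had made up more of the gained bases than isolated or bridging runs. The shAC list of embryo 1.5 gained 24.3 Mb in the WT gaps, with 13.47 Mb (55.4%) as extensions, 7.50 Mb (30.8%) isolated and 3.37 Mb (13.8%) bridging. That of embryo x17 gained 17.6 Mb, with 10.2 Mb (58.0%) as extensions, 4.66 Mb (26.5%) isolated and 2.73 Mb (15.5%) bridging. Both lists shared 6.32 Mb of gain, of which 3.92 Mb were extensions, 1.23 Mb isolated and 1.17 Mb bridging. The shares were unsteady. Extensions made up 62.0% of the shared gain, 47.8% with the lists as deposited, 42.3% with bases called in at most 1 WT list counted as gaps, 48.9% without WT embryo 1.8 and 43.4% without WT embryo x17. Isolated runs made up 19.5% of the shared gain and 37.1% without WT embryo x17, and bridging runs 18.5% and 2.39% with LADs over 500 kb, or 2.56% in gaps of 100 kb or more. Extension was the leading place in each list, as edge was among the losses.

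Against paired WT references, the gains of shAC and WT lists overlapped in every place. Isolated gain was 1.33% ± 0.359 of gap bases in shAC (SD, n = 2) and 2.10% ± 1.88 in WT (SD, n = 3; two-sided exact permutation test, p = 1). Extension gain was 2.13% ± 0.562 in shAC (SD, n = 2) and 3.15% ± 1.82 in WT (SD, n = 3; exact permutation test, p = 0.7). Bridging gain was 0.737% ± 0.0286 in shAC (SD, n = 2) and 0.915% ± 0.228 in WT (SD, n = 3; exact permutation test, p = 0.7). The WT values were furthest apart for WT embryo 1.8, which gained 4.04% as isolated runs against 0.282% in WT embryo 1.5.

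Loss was concentrated close to the ends of blocks. Within 25 kb of a block end, 10.5% of bases were lost in shAC embryo 1.5 and 21.8% in shAC embryo x17. The share was 0.980% and 4.14% at 100 to 200 kb from the end, and 0.138% and 0.429% beyond 500 kb. Long blocks were correspondingly spared. In blocks of 1000 kb or more 0.474% and 1.16% of bases were lost, against 9.36% and 23.8% in blocks of 100 to 250 kb, in embryos 1.5 and x17. A like gradient was present among WT lists: in the paired references, bases within 25 kb of a block end were lost for 8.96% to 27.7% in WT and for 16.8% and 28.5% in the shAC lists. In each distance class the WT and shAC values overlapped. The concentration at edges was thus present between WT lists as well.

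**Figure D2:**
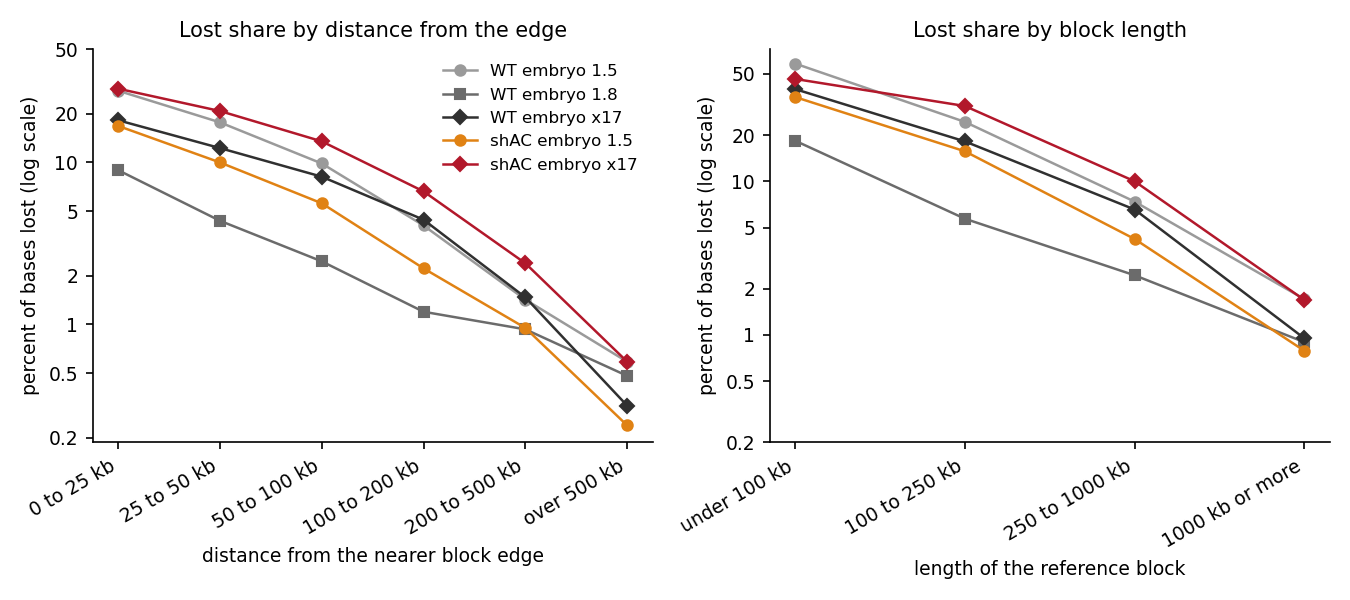
Percent of bases lost from blocks of a WT pair, on a log axis, by distance from the nearer block edge (left) and by block length (right). Lines are the 3 WT lists, each against the other WT lists, and the 2 shAC lists, averaged over the 3 references; all fall with distance, from between 8.96% and 28.5% within 25 kb to under 0.6% beyond 500 kb.

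Edges were also followed directly, in LADs that matched 1 to 1 between lists. The same-embryo pairs are the closest comparison the design offers, since both lists carry the same embryo name. In embryo 1.5, 1095 LADs matched, and their 2190 edges lay a median of 0.921 kb further out in shAC, with the middle range from -9.31 to 14.8 kb. In embryo x17, 1141 LADs matched, and their 2282 edges lay a median of 1.85 kb further in, with the middle range from -18.2 to 1.60 kb. The directions were opposite. Edges within 10 kb of their WT position made up 45.5% in embryo 1.5 and 54.5% in embryo x17. Retreats over 100 kb made up 4.29% and 5.87% of edges, and advances over 100 kb 5.11% and 2.15%, in turn.

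Edges facing the centromere and edges facing the telomere had similar median shifts. In embryo x17 the median shift was -1.87 kb for centromere-side and -1.83 kb for telomere-side edges, and in embryo 1.5 it was 1.19 kb and 0.546 kb. The mean of the 6 median shifts, 1 for each WT to shAC list pair, was -1.39 kb (negative is inward; the pairs share lists), and 4 of the 10 arrangements of list names gave a shift of at least this size (exact permutation test, two-sided, p = 0.4). With shifts under 10 kb ignored, which removes the edges that moved least, this mean of medians was -14.1 kb. The mean shift within a pair ran from -28.3 to 4.74 kb, farther from 0 than the medians. Between WT lists the median shift reached 4.69 kb, from embryo 1.5 to embryo 1.8.

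**Figure D3:**
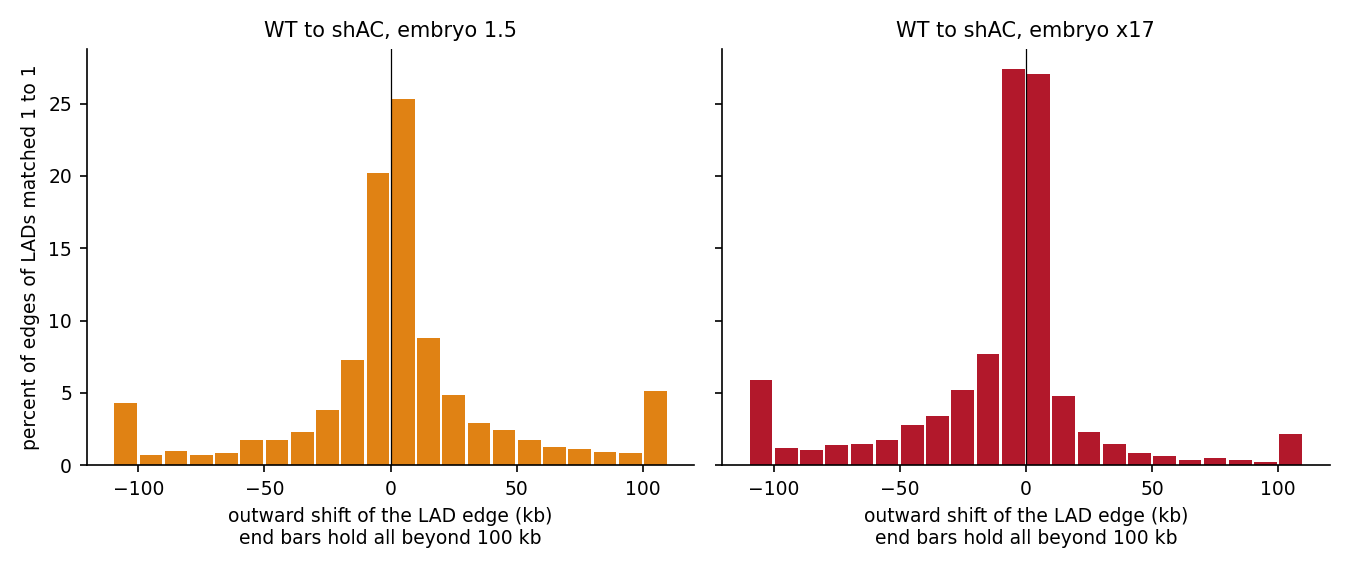
Outward shift in kb of LAD edges from WT to shAC within embryo 1.5 (left) and embryo x17 (right), as percent of the edges of LADs matched 1 to 1; negative values are retreat into the WT LAD, and edges that did not move are in the bar right of 0. The median is 0.921 kb outward in embryo 1.5 and 1.85 kb inward in embryo x17, and the end bars hold all shifts beyond 100 kb.

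Within embryos, the net change had opposite signs in each place, although with the lists as deposited the interior change was negative in both (-19.3 Mb for embryo 1.5, -16.6 Mb for embryo x17). In embryo 1.5 the shAC list held 34.8 Mb more in whole LADs, 16.0 Mb more at edges and 3.62 Mb more in interiors than the WT list (gained minus lost bases). In embryo x17 the net change was -43.2 Mb in whole LADs, -38.9 Mb at edges and -7.84 Mb in interiors. The SD of the same net changes over the 6 ordered WT to WT pairs was 55.1 Mb for whole LADs, 42.9 Mb for edges and 4.04 Mb for interiors. Changes in whole LADs and at edges were smaller than their SD, which counts each WT pair in both directions. Among WT pairs, only embryo 1.5 to 1.8 changed more than embryo x17 did, at 71.8 Mb in whole LADs and 53.9 Mb at edges. The others gave 30.3 and -39.0 Mb in whole LADs and 17.8 and -37.2 Mb at edges. The interior change of embryo x17 was larger in size than its SD. It was -2.07 Mb with LADs over 200 kb and -1.22 Mb with LADs over 500 kb, both smaller in size than that SD. The SD was taken with LADs over 100 kb only, so it is no measure of WT spread at these lengths. The other amounts also moved with the length minimum and the joining. With LADs over 500 kb, the net change in embryo 1.5 was 2.44 Mb in whole LADs, and that at edges in embryo x17 was -16.4 Mb. With LADs over 200 kb, whole LADs in embryo 1.5 gave 19.9 Mb, and with the lists as deposited they gave 66.7 Mb. With joining under 50 kb, embryo 1.5 gave 37.4 Mb at edges and 12.5 Mb in interiors, and embryo x17 gave -15.3 Mb in interiors. With 1 list per condition in each embryo, these differences have no replicate check.

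Some bases changed call in the same direction in both embryos. Of 1377 Mb in the WT list of embryo 1.5, 76.1 Mb were lost, and of 1429 Mb in that of embryo x17, 133.5 Mb were lost. Loss shared by both same-embryo pairs came to 18.4 Mb, which is 24.2% of the loss in embryo 1.5 and 13.8% of that in embryo x17. Both shares were above the share of all LAD bases that the other embryo lost, and whether unrelated pairs of lists share as much was not tested. Shared gain came to 11.6 Mb, or 8.91% and 26.7% of the gains. Bases gained in embryo 1.5 and lost in embryo x17 came to 22.6 Mb, more than either. Bases changed in the reverse way came to 4.86 Mb.

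Splitting of LADs exceeded merging in both same-embryo pairs. A split is a WT LAD that corresponds to several shAC LADs, and a merge is the converse. From WT to shAC there were 158 splits and 151 merges in embryo 1.5, and 175 splits and 114 merges in embryo x17, an excess of 7 and 61 splits. Over the 6 WT to shAC list pairs the excess ranged from -4 to 61, with a mean of 36.7. Between WT lists it was -13 (embryo 1.5 to 1.8), 9 (embryo 1.5 to x17) and 28 (embryo 1.8 to x17). The value of 36.7 was the largest of the 10 arrangements (two-sided exact permutation test, p = 0.1, the smallest possible; 0.8 after Benjamini-Hochberg adjustment over the 8 measures tested).

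The excess of splits varied with the lists compared. The pairs with the shAC list of embryo x17 gave 49, 57 and 61, from WT embryos 1.5, 1.8 and x17, and those with the shAC list of embryo 1.5 gave 7, 50 and -4. Naming the WT and shAC lists of embryo x17 as the treated group gave 35.7, almost the same value, and the excess from the shAC list of embryo 1.5 to that of embryo x17 was 67, larger than in any WT to shAC pair. The excess was 1.33 with LADs over 200 kb only (exact permutation p = 1), -3.33 with LADs over 500 kb (exact permutation p = 0.8) and 393.5 with the lists as deposited (exact permutation p = 0.3). It was 17.7 without the shAC list of embryo x17 and 55.7 without that of embryo 1.5. Breaks that split LADs were narrow, with a median of 36.7 kb in embryo 1.5 and 42.7 kb in embryo x17, against 38.3 to 44.9 kb between WT lists when each pair is read in both directions. LADs that split had medians of 911 kb and 1162 kb, and those that split between WT lists had medians of 918 to 1125 kb.

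**Figure D4:**
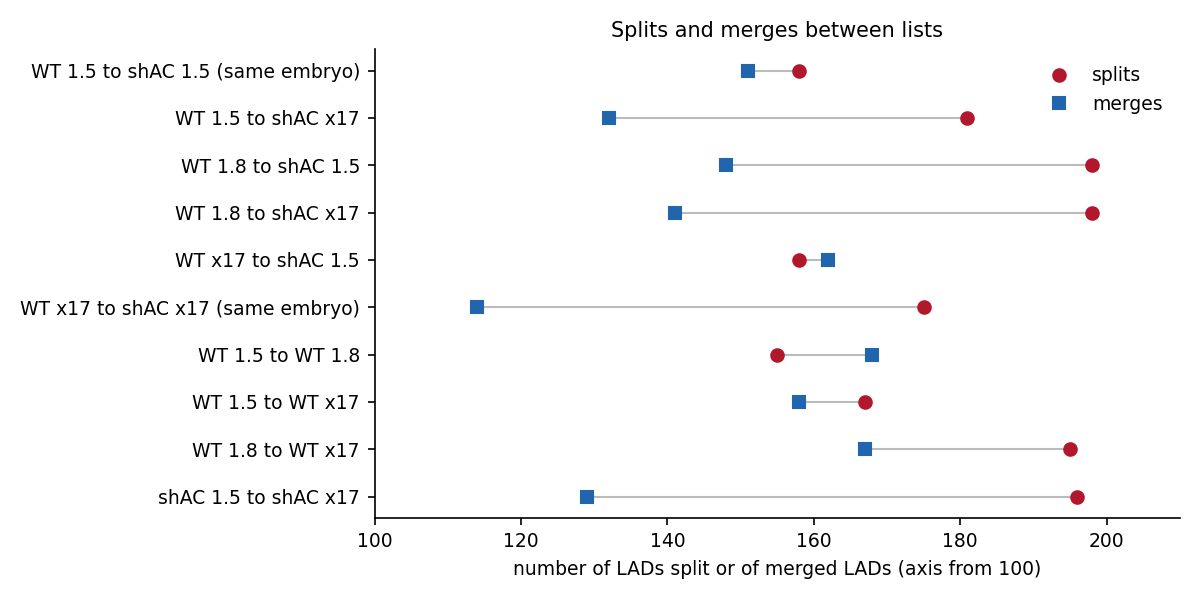
Number of LADs of the first list that split in the second (circles) and of LADs in the second that merge several of the first (squares), for each pair of lists; the axis starts at 100. Splits exceed merges most from the shAC list of embryo 1.5 to that of embryo x17 (196 against 129) and from WT to shAC within embryo x17 (175 against 114).

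Few WT blocks were split in both shAC lists. Of the 2105 blocks, 50 (2.38%) were split in embryo 1.5, 83 (3.94%) in embryo x17 and 17 (0.808%) in both. The longest block split in both lay at chr4:89206496-93666844 (mm9), and both shAC lists held it as 2 pieces, with 26.7 kb missing from both. A 2830 kb block at chr7:13657448-16487647 lost 30.7 kb in shAC embryo 1.5, and all of it was among the 50.5 kb lost in shAC embryo x17. A 2341 kb block at chr1:66928444-69269651 was held as 3 pieces in each shAC list, with 60.6 kb missing from both. Of the 17 blocks split in both, 8 were 1000 kb or longer. In the other direction, the longest gap filled in both shAC lists was 118 kb at chr3:123353445-123471375, which joined 2 WT blocks. It was followed by 94.0 kb at chr8:45148934-45242887 and 54.6 kb at chr8:19798488-19853133.

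Along chromosomes, loss in shAC cells was highest toward the telomere. Mouse autosomes have the centromere at the end where coordinates start, so the span of each chromosome was divided into 10 equal bins from bin 1, at the centromere, to bin 10, at the distal telomere. From bin 1 to bin 10, the share of WT block bases lost went from 1.70% to 3.63% in shAC embryo 1.5 and from 4.34% to 8.26% in shAC embryo x17. Bins 9 and 10 were the highest in both lists, and the profiles of both over the 10 bins had a Pearson correlation of 0.919 and a Spearman correlation of 0.903 (a description, as both share the same blocks). Whole-block loss took part, at 0.530% in bin 1 and 1.13% in bin 10 of embryo 1.5 and at 1.58% and 3.52% of embryo x17. So did edge loss, at 0.864% and 1.84% in embryo 1.5 and at 2.16% and 3.42% in embryo x17. Interior loss was 0.301% and 0.664% in embryo 1.5 and 0.600% and 1.32% in embryo x17.

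WT lists also varied between bins against paired WT references, with 4.98% to 7.43% lost in WT embryo 1.5, 1.31% to 2.88% in WT embryo 1.8 and 2.73% to 6.11% in WT embryo x17. Their highest bins were bins 3, 8 and 7 in turn. WT and shAC values overlapped in every bin. WT embryo 1.5 lay above shAC embryo 1.5 in all 10, with the shAC values averaged over the 3 references. On the blocks of WT embryos 1.8 and x17 alone, bin 10 was 5.80% in shAC embryo 1.5 and 5.72% in WT embryo 1.5. In the telomere-side 20% of each chromosome (bins 9 and 10), WT embryo 1.5 lost 5.71% of block bases against 6.23% in the rest, a ratio of 0.916. WT embryo 1.8 lost 2.13% against 1.85% (ratio 1.15), and WT embryo x17 lost 5.16% against 4.51% (ratio 1.14). In shAC embryo 1.5 the loss was 4.93% against 3.17%, with a ratio of 1.56 that ran from 1.48 to 1.61 over the 3 references. In shAC embryo x17 it was 10.4% against 6.82%, with a ratio of 1.53 that ran from 1.46 to 1.62. At this width neither shAC list overlapped the WT lists. With the telomere-side 30% the gap nearly closed, with ratios of 1.44 and 1.42 in shAC embryos 1.5 and x17 against 0.850, 1.41 and 1.05 in WT embryos 1.5, 1.8 and x17. The mean ratio in shAC exceeded that in WT by 0.476, the largest absolute difference of the 10 arrangements, of which the next in size was -0.318 (two-sided exact permutation test, p = 0.1, the smallest possible; 0.333 after Benjamini-Hochberg adjustment over the 10 measures). The difference was 0.283 without WT embryo 1.5 (exact permutation p = 0.167) and 0.283 without WT embryo x17 (exact permutation p = 0.333). This measure was chosen after the profiles had been seen.

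LAD coverage, which needs no reference blocks, showed the same ordering. LADs covered 53.2%, 57.8% and 54.3% of the telomere-side 20% in WT embryos 1.5, 1.8 and x17, against 58.0%, 63.5% and 60.4% of the rest. The ratio was 0.917, 0.910 and 0.899. In shAC cells they covered 53.2% against 60.8% in embryo 1.5 and 49.0% against 57.0% in embryo x17, with ratios of 0.876 and 0.860. The shAC ratio was lower than the WT ratio of the same embryo by a like amount in both pairs, with a difference of -0.0407 in embryo 1.5 and -0.0389 in embryo x17. All shAC ratios lay below all WT ratios (difference of means -0.0406; two-sided exact permutation test, p = 0.1, the smallest possible; 0.333 after adjustment over the 10 measures). The same-embryo difference in coverage went from 4.58 percentage points in bin 1 to -0.327 in bin 10 of embryo 1.5, and from -2.89 to -5.19 in embryo x17. Differences between WT lists went down along the chromosome too, from 3.45 to 0.726 points for WT embryo x17 minus WT embryo 1.5 and from 6.42 to 4.51 for WT embryo 1.8 minus WT embryo 1.5.

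Gains were, conversely, scarcer near the telomere in shAC cells. Gap bases gained in the telomere-side 20% were 3.49% against 5.28% in the rest for shAC embryo 1.5 (ratio 0.661) and 2.55% against 3.82% for shAC embryo x17 (ratio 0.676). In WT the ratio was 1.08, 0.866 and 0.730 for embryos 1.5, 1.8 and x17, above both shAC values. Gain common to both shAC lists was 1.38% of gap bases in bin 1 and 0.127% in bin 10. It did not fall steadily between them, with 0.267% in bin 7 and 0.760% in bin 9.

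The telomere-side ratio of loss was also higher in shAC than in the 6 drug lists of the series, measured against the same WT references. It was 1.11 and 1.32 under BIX01294 (a G9a inhibitor), 1.12 and 1.34 under DZNep (which lowers histone methylation) and 0.881 and 0.885 under TSA (a histone deacetylase inhibitor), in embryos 1.8 and x17. The lists of embryo x17 were the higher ones under both methylation inhibitors. Coverage ratios in the drug lists, at 0.896 to 0.958, were all above both shAC values. The difference between shAC and the drug lists was not tested.

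**Figure D5:**
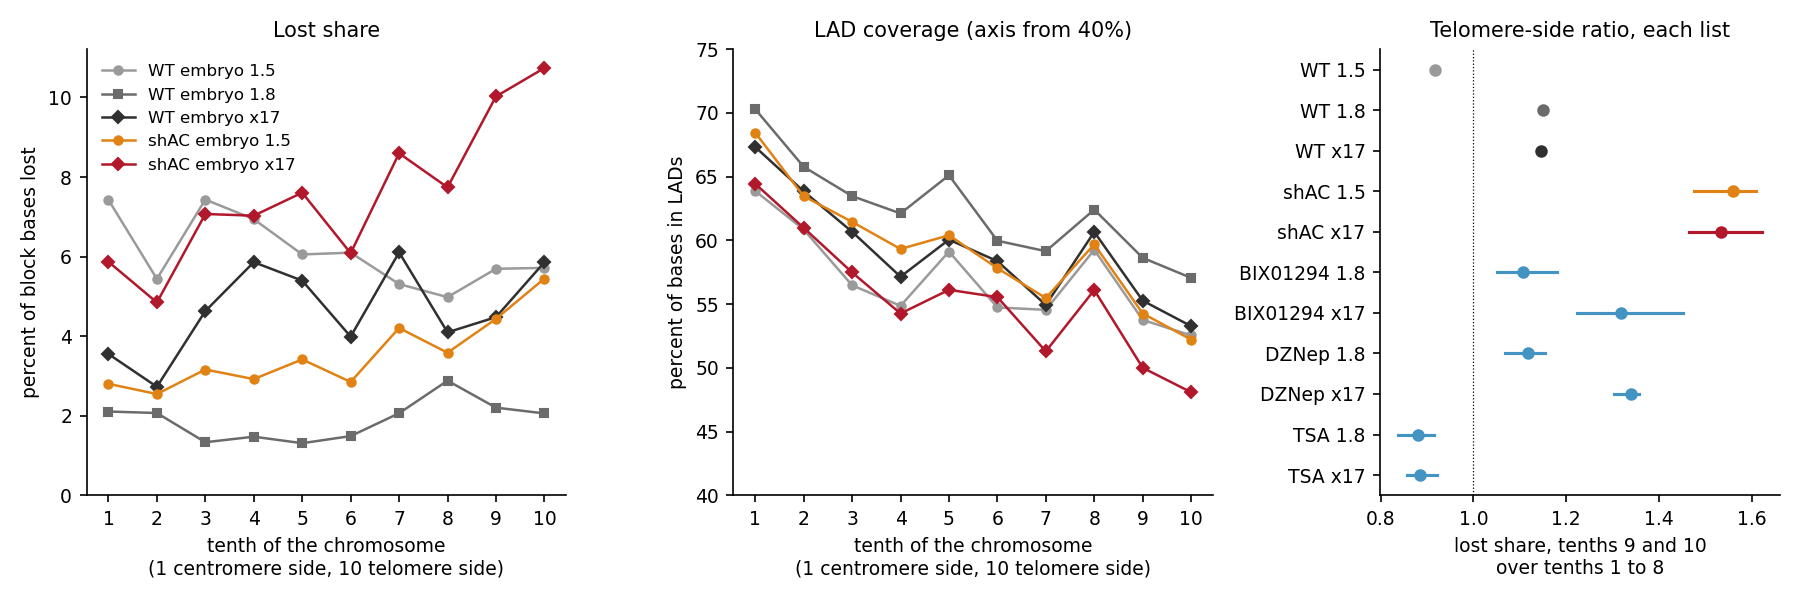
Left, percent of bases of WT-pair blocks lost in bins 1 to 10 of the chromosome; middle, percent of bases covered by LADs, with the axis from 40%; right, the lost share in bins 9 and 10 over that in bins 1 to 8, with the lowest and highest of 3 references as a line where there are 3. The shAC lists reach 1.56 and 1.53 on the right, above the WT lists (0.916 to 1.15) and the drug lists (0.881 to 1.34).

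The difference was also examined among blocks of similar length. The median block was 286 kb in bin 10 and 272 kb in bin 1, and from 268 to 378 kb in the other bins. In blocks of 1000 kb or more, the telomere-side 20% lost 1.16% against 0.718% in shAC embryo 1.5 (ratio 1.61) and 2.83% against 1.47% in shAC embryo x17 (ratio 1.92). WT ratios there were 1.11, 1.22 and 0.569 for embryos 1.5, 1.8 and x17. In blocks of 250 to 1000 kb both shAC ratios were 1.29, and WT ratios were 0.798, 0.744 and 1.17. In blocks under 250 kb the groups overlapped, with shAC ratios of 1.29 and 1.17 and a WT ratio of 1.31 in embryo 1.8.

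Most chromosomes, but not all, had this profile. Loss was higher in the telomere-side 20% than in the rest on 16 of 19 chromosomes in shAC embryo 1.5, on 14 in shAC embryo x17 and on 13 in both. The WT lists had it on 7, 9 and 10 chromosomes (embryos 1.5, 1.8 and x17), and on 2 in all 3. The joint shAC count spans 2 lists and the joint WT count 3, so these are not directly comparable. Each shAC value is also a mean over 3 references, against 1 for each WT list. On chromosome 8, shAC embryo x17 lost 20.6% of the telomere-side block bases against 5.98% of the rest, and shAC embryo 1.5 lost 3.95% against 2.92%. WT embryo 1.5 lost 8.68% against 5.66% there and WT embryo x17 5.34% against 3.03%. On chromosome 11 the loss was 15.1% against 5.64% in shAC embryo x17 and 11.6% against 2.62% in shAC embryo 1.5, and there WT embryo x17 also lost 11.01% against 3.37%. Chromosomes 8 and 11 were those with higher telomere-side loss in all 3 WT lists. Chromosomes 18 and 19 went the other way in both shAC lists and in all 3 WT lists. On chromosome 19 shAC embryo x17 lost 1.58% of the telomere-side bases against 12.05% of the rest, and shAC embryo 1.5 lost 1.34% against 4.48%, while WT embryos 1.5, 1.8 and x17 lost 6.64%, 0.261% and 2.49% against 9.67%, 1.94% and 4.93%. Chromosomes 8, 11, 18 and 19 were named here after their values had been seen.

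At the level of whole chromosomes the groups overlapped. The mean lost share of both shAC lists was highest on chromosomes 9 (4.86%), 10 (4.76%) and 19 (4.66%), and lowest on chromosomes 16 (2.62%), 7 (2.64%) and 12 (2.94%). On chromosome 9 it was 1.95% in embryo 1.5 and 7.78% in embryo x17, and on chromosome 7 it was 0.816% and 4.47%. Against paired WT references, both shAC lists lay above all WT lists on 0% of the 19 chromosomes for loss and below all of them on 0%, and the same held for gain. Chromosomes shared their order of loss between shAC lists weakly, with a Pearson correlation of 0.386 and a Spearman correlation of 0.396 over 19 chromosomes, and their order of gain more closely, at 0.730 and 0.646 (descriptions, as both lists share the blocks and gaps).

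Named runs illustrate each place, in mm9 coordinates. Their gene content was not analysed here, as the annotation at hand is of another build. The longest whole block absent from both shAC lists, 196 kb at chr8:98016018-98212378, was called over 99.7% to 100% of its bases in the BIX01294 and DZNep lists, and over 61.9% and 0% in the TSA lists of embryos 1.8 and x17. Of its bases 57.9% lay in intervals of the deposited shAC list of embryo 1.5 and 19.5% in those of embryo x17, in pieces too short to be kept. The next, at chr4:45783518-45975825 (192 kb) and chr5:144680585-144856514 (176 kb), were likewise present in part among the deposited shAC intervals, with at least 25.7% of bases in each. These blocks thus still held short intervals in the deposited shAC lists.

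Edge losses common to both lists were led by 163 kb at the telomere side of a 1777 kb block, at chr3:150743579-150906377. The next lay at chr9:122858451-123005639 (147 kb), at 99.0% of the length of chromosome 9, and at chr5:24719976-24853563 (134 kb). These runs, picked by length, were all on the telomere side of their blocks. The run on chromosome 3 lay at 94.4% of the length of its chromosome and that on chromosome 5 at 14.5%. Interior losses were led by 127 kb at chr10:43605755-43732688, inside a 569 kb block, where the deposited list of embryo 1.5 had no interval and that of embryo x17 held 10.6% of the bases. A 110 kb run on chromosome 18 and 101 kb at chr10:19566490-19667161 followed, and neither held any interval of the deposited shAC lists. Over all interior runs common to both lists, 0% and 2.75% of bases lay in a deposited shAC interval (embryos 1.5 and x17). The share was 40.5% and 35.3% for whole blocks and 20.1% and 16.6% for edges. The joining and the length minimum set these shares in part, since a narrow interior run has little room for a separate interval.

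Gains common to both lists were led by an extension of 302 kb at chr13:103037881-103340360, from the LAD on its centromere side. Extensions of 207 kb at chr3:66799827-67006745 and 183 kb at chr10:50448150-50630748 grew from the LAD on the telomere side. The isolated gains were led by 261 kb at chr13:26134428-26395791, inside a 771 kb gap, followed by 157 kb at chr4:13482234-13639729 and 123 kb at chr13:29075099-29198448. Of all isolated gains common to both lists, deposited WT intervals held 0%, 20.4% and 25.3% of bases in embryos 1.5, 1.8 and x17. For all gap bases these shares were 1.90%, 5.30% and 4.25%. On chromosome 13, 2.89% of gap bases were gained in both lists, against 0.778% on all autosomes (a chromosome singled out after its values were seen). Against paired WT references, the groups overlapped on this chromosome. Its gain was 9.46% and 7.7% in shAC embryos 1.5 and x17, between 3.34% in WT embryo 1.5 and 12.4% in WT embryo 1.8. In WT embryos 1.5 and x17 it also had the highest gain of all autosomes, so high gain there was not particular to shAC lists.

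Bases that both shAC lists had lost were for the most part still called under the methylation inhibitors. Of the 14.9 Mb, the BIX01294 lists held 80.0% and 84.9% and the DZNep lists 74.7% and 70.3%, in embryos 1.8 and x17. The TSA lists held 50.2% and 39.3%. For all bases of the WT blocks these shares were 98.2% to 99.2% under BIX01294 and DZNep and 91.7% to 92.0% under TSA. In each drug list the share for bases lost from both shAC lists lay below that for all WT block bases, a difference that was not tested. Of the gained bases common to both shAC lists, the drug lists held 12.7% to 54.9%, against 2.51% to 6.40% of all gap bases. Some positions that differed in shAC cells thus differed in lists with no hairpin too.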

How the data were processed

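DamID-seq was measured in 10 libraries of primary MEFs, in 3 WT and 2 shAC pairs (Dam-lamin B1 with its Dam-only control). The paper's methods describe calling LADs with LADetector, which segments the signal of Dam-lamin B1 over Dam-only. The paper names this series among earlier datasets that it discusses, so whether these lists were made in exactly this way is not stated. The authors deposited 1 list of interval starts and ends per pair and pooled no replicates. The build is mm9 in the submitters' processing notes. The aligner is not given in the sources used here. Calls made on libraries of unequal depth or enrichment would differ with no trace in a list.

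Gaps under 25 kb were closed and LADs over 100 kb kept on chromosomes 1 to 19, and starts were converted to count from 1. Deposited neighbors lay at least 10001 bp apart, so shorter breaks were closed upstream. Chromosome spans were bounded by the outermost bases of all lists. The 8 measures by place were compared by exact permutation of the 5 list names, two-sided, with Benjamini-Hochberg adjustment. A further 2 measures of the telomere-side 20% were added after the profiles had been seen. Permuted WT and shAC lists share references and are not independent. The members and measures were chosen with earlier results of these data known. Libraries with the same embryo name were taken as the same animal, which is the source of the pairing. Named runs are the 3 longest of each place common to both shAC lists, the 3 longest WT blocks split in both, and the 3 longest gaps filled in both. Chromosomes were named as the 3 highest and the 3 lowest by lost share, and chromosomes 8, 11, 13 and 18 after their values had been seen.

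Alternatives were the lists as deposited, joining under 50 kb, minimum lengths of 200 and 500 kb, chromosome X added, changed runs under 10 kb ignored, edges within 25 kb, reference blocks of 100 kb or more, other WT references, the replicate block, and leaving out each list. Python 3.11.15 with numpy 2.4.6 and matplotlib 3.10.9 was used, and the interval code was tested on simulated data.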

Additional observations from a re-analysis of the deposited data

Results flagged for a closer look

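The embryos moved in opposite directions in 9 measures, with shAC above WT in 1 embryo and below it in the other. The difference between the embryos was not tested, since each has 1 WT and 1 shAC list. In embryos 1.5 and x17 in turn, shAC minus WT was -1.21 and 2.22 percentage points for whole-block loss, -1.004 and 1.55 for edge loss, and -0.118 and 0.493 for interior loss. It was 0.697 and -0.122 percentage points for isolated gain and 0.505 and -0.702 for extension gain. The median outward shift of edges was 0.921 kb and -1.85 kb. Net change was 34.8 Mb and -43.2 Mb for whole LADs, 16.0 Mb and -38.9 Mb for edges, and 3.62 Mb and -7.84 Mb for interiors, the last with the same sign in both embryos with the lists as deposited. Both telomere-side ratios, the excess of splits and bridging gain (0.0225 and 0.0747 percentage points) had the same sign in both embryos.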

How the results depend on the processing

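Across 22 results and 266 alternative values, 200 kept the direction of the tested result or stayed within 1 SD of the described value, 54 described values moved further and 12 tested values changed sign. The SD was over the 2 shAC lists for shares by place and over the 6 ordered WT to WT pairs for net changes. Wide SDs make this a loose rule. A move from 34.8 to 2.44 Mb (whole LADs of embryo 1.5, LADs over 500 kb) counted as within 1 SD. Unless stated, the cause was not tested. Both telomere-side measures kept their sign in all alternatives run, which were chosen after seeing the data. With each list left out, the excess of the loss ratio ran from 0.283 to 0.489 and that of the coverage ratio from -0.0488 to -0.0325. Over the other alternatives they ran from 0.327 to 0.577 and from -0.0632 to -0.0336, each with p = 0.1 in the exact permutation test where a test was made. In the replicate block of same-embryo pairs they were 0.440 and -0.0398.

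The signs of the losses by place depended on settings. Whole-block loss in shAC minus WT was -0.187 percentage points with the lists as deposited. Edge loss was -0.194 with LADs over 500 kb, and interior loss -0.0368 with LADs over 200 kb and -0.00022 with LADs over 500 kb. With each list left out, the difference ran from -0.320 to 1.64 for whole-block, from -0.340 to 1.28 for edge and from -0.0641 to 0.333 for interior loss, with the lowest value in each case without the shAC list of embryo x17. Interior loss was also negative, at -0.0304, without WT embryo 1.8. Isolated gain ran from -2.07 to -0.332, extension gain from -2.46 to -0.616 and bridging gain from -0.310 to 0.240, the last without WT embryo x17. Leaving out a WT list leaves 1 WT list as the reference. In the replicate block, the pairing turned isolated gain to 0.287 and bridging gain to 0.0486, and no other tested measure changed sign there. Splits minus merges was -3.33 with LADs over 500 kb, 393.5 with the lists as deposited and from 17.7 to 55.7 with each list left out. Edge shift was -14.1 kb with shifts under 10 kb ignored and ran from -2.46 to -0.310 kb with each list left out.

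Of bases lost from both lists, the whole-block share was 24.1% with the lists as deposited and 32.8% with joining under 50 kb. The edge share was 50.9% with joining under 50 kb, 53.1% and 55.7% with LADs over 200 and 500 kb, 41.6% with runs under 10 kb ignored and 51.4% for blocks in at least 2 WT lists. With runs under 10 kb ignored the whole-block share was 43.7%, above the edge share. The interior share was 27.7% with the lists as deposited, which lack both the joining and the length minimum, and 3.25% with LADs over 500 kb. With each list left out these shares ran from 31.9% to 41.5%, from 46.6% to 51.2% and from 10.9% to 17.5%.

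Of bases gained in both lists, bridging, extension and isolated runs made up 22.4%, 47.8% and 29.8% with the lists as deposited, 21.8%, 53.6% and 24.5% with joining under 50 kb, and 2.39%, 66.1% and 31.5% with LADs over 500 kb. They made up 2.56%, 70.7% and 26.7% in gaps of 100 kb or more, which removes short gaps that can be bridged, and 21.5%, 42.3% and 36.3% for bases in at most 1 WT list. With LADs over 200 kb bridging was 13.4% and isolated 22.8%. With runs under 10 kb ignored bridging was 19.8% and extension 59.4%, and with edges within 25 kb 21.6% and 59.0%. With each list left out bridging ran from 13.8% to 24.4%, extension from 43.4% to 58.4% and isolated from 17.2% to 37.1%. These shares rest on 6.32 Mb.

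The net interior change of embryo 1.5 was -19.3 Mb with the lists as deposited, a change of sign, and 12.5 Mb with joining under 50 kb. That of embryo x17 was -16.6 Mb and -15.3 Mb in these, and -2.07 Mb and -1.22 Mb with LADs over 200 and 500 kb. Depth is unknown for every list, and its part in any value was not tested.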
